A study of Mus musculus with 5 samples.

Results

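This account follows the RNA of mouse embryonic stem cells after transfection of an siRNA against Tfam, read against a single control library labelled NC. The genes described are those with a deposited log2 ratio in both libraries labelled siTfam, 12231 of the 12930 genes in the table. Cells of the OG2 line, labelled as mouse embryonic stem cells of a (CBA/CaJxC57BL/6J) by 129Sv/Jae background, were grown on gelatin for 24 h in N2B27 medium with LIF, PD0325901 and CHIR99021, the additions that hold the naive state. At transfection with 50 nM of siRNA the medium was replaced, for 36 h, by a differentiation medium holding 12.5 ng/ml bFGF, 20 ng/ml Activin A and serum replacement, so that every library comes from cells leaving the naive state and from cells that were transfected. The groups used are siTfam (2 libraries), NC (1 library) and siDhx30 (2 libraries, with an siRNA against the mitochondrial RNA helicase gene Dhx30), and the same NC library is the denominator for both siRNA groups. The labels describe NC only by those letters and are silent on whether replicates are separate cultures, so the p-values reflect library-to-library spread that could be technical. "siTfam libraries" below means the libraries labelled so.

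Tfam encodes an HMG-box protein that enters mitochondria, bends and compacts mitochondrial DNA into nucleoids and, with the mitochondrial RNA polymerase Polrmt and the factor Tfb2m, starts transcription at the promoters of both DNA strands. The long transcripts made there are cut into the 2 ribosomal RNAs, the tRNAs and the mRNAs of 13 respiratory chain proteins, while all other proteins of the mitochondrion are encoded in the nucleus. Loss of TFAM protein is known to lower mitochondrial DNA and its transcripts, and failing mitochondria are known to signal to the nucleus through the integrated stress response and its transcription factor ATF4.

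The mitochondrially encoded tRNAs are the genes closest to what TFAM acts on, and those shown are the 7 whose ratios in the siTfam libraries lay on the same side of NC. They are DNA-sense sequences of the mouse mitochondrial genome (GRCm38, GENCODE M21 transcripts), 5′ to 3′, with the anticodon in capitals. mt-Tk (lysine) lies at chrM:7700-7764 on the plus strand, mt-Ti (isoleucine) at chrM:3706-3774 on the plus strand, mt-Tl2 (a leucine tRNA) at chrM:11671-11741 on the plus strand, mt-Tt (threonine) at chrM:15289-15355 on the plus strand, mt-Ts1 (a serine tRNA) at chrM:6870-6938 on the minus strand, mt-Te (glutamate) at chrM:14071-14139 on the minus strand and mt-Tp (proline) at chrM:15356-15422 on the minus strand.
mt-Tk: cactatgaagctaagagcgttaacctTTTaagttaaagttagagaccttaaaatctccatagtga
mt-Ti: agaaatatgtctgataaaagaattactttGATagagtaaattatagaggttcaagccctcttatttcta
mt-Tl2: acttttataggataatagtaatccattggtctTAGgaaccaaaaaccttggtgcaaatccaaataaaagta
mt-Tt: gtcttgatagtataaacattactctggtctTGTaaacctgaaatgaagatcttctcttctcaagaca
mt-Ts1: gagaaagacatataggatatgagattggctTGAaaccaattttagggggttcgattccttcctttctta
mt-Te: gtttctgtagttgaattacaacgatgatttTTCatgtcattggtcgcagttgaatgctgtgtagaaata
mt-Tp: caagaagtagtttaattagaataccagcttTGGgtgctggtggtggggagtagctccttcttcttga
Each is shorter than 1 sequencing read (150 bases), and mt-Ts1 overlaps the end of mt-Co1 on the other strand, so reads of neighbouring transcripts may enter these values if strand was not used in counting, which the sources used here do not state.

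The 2 mitochondrial ribosomal RNAs lay a little below NC in both siTfam libraries. mt-Rnr2, the large ribosomal RNA, had log2 ratios of -0.53 and -0.28 in replicates 1 and 2, with a mean of -0.40 (limma SE 0.23, 95% confidence interval -1.05 to 0.24, adjusted p = 0.886). mt-Rnr1, the small ribosomal RNA, had -0.09 and -0.04. In the siDhx30 libraries, which share the NC library, mt-Rnr2 had -0.57 and -0.34 and mt-Rnr1 had -0.27 and -0.14. The siTfam minus siDhx30 difference, from which NC cancels, was 0.05 for mt-Rnr2 (-0.47 to 0.58) and 0.14 for mt-Rnr1 (-0.28 to 0.56), neither past the threshold. Of 13 mitochondrial mRNA genes listed, 0 were found among the genes with both siTfam values, so they were not analysed here.

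Of 22 mitochondrial tRNA genes listed, 12 had both values. Among the 8 read in the sense of the heavy-strand transcript, 3 lay below NC in both siTfam libraries, 1 lay above and 4 were mixed, with a median of -0.25. Without mt-Tk, mt-Ti, mt-Tl2 and mt-Tt, the 4 members with a recurring ratio, the median was -0.0082. mt-Tk had ratios of -0.81 and -3.52, mt-Ti of -0.97 and -0.60 and mt-Tl2 of -0.83 and -0.06. mt-Tt was the member above NC, at 0.11 and 0.71, while mt-Tw had 0.16 and -1.16. The median of these 8 was -0.12 in each siTfam library alone and 0.17 and 0.14 in the siDhx30 libraries. Of the 4 with the opposite sense, mt-Ts1 had -3.19 and -0.63, mt-Te -1.13 and -0.19, mt-Tp 0.28 and 0.44, and mt-Ty -0.33 and 0.21. The tRNA ratios of mt-Tk and mt-Ts1 differed between the siTfam replicates by far more than most genes did, and their confidence intervals were correspondingly wide, from -7.29 to 2.95 for mt-Tk and from -7.44 to 3.63 for mt-Ts1. No mitochondrially encoded RNA passed the limma test.

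Over all 12231 genes the 2 siTfam libraries were centred close to NC, with median log2 ratios of -0.0042 and -0.0058. Both ratios lay above NC for 4007 genes (32.8%) and below it for 4164 (34.0%). Both were at least 0.5 above NC for 768 genes (6.28%) and at least 0.5 below for 694 (5.67%), the size used below for counting. These counts are descriptions, because both ratios share the NC library and their agreement is not independent. The difference between the 2 siTfam ratios, from which NC cancels, had a median absolute size of 0.24 and a 95th percentile of 1.26, and exceeded 1 for 989 genes (8.09%). With limma across all genes, 0 of 12231 genes (0.0%) had an adjusted p under 0.05; the smallest was 0.283, and 838 genes had an unadjusted p under 0.05, 467 higher and 371 lower. A single gene compared alone between 2 libraries and 1 cannot reach an exact permutation p below 0.333. No gene named below therefore passed a test against NC, and the text gives where its ratios lay.

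**Figure D1:**
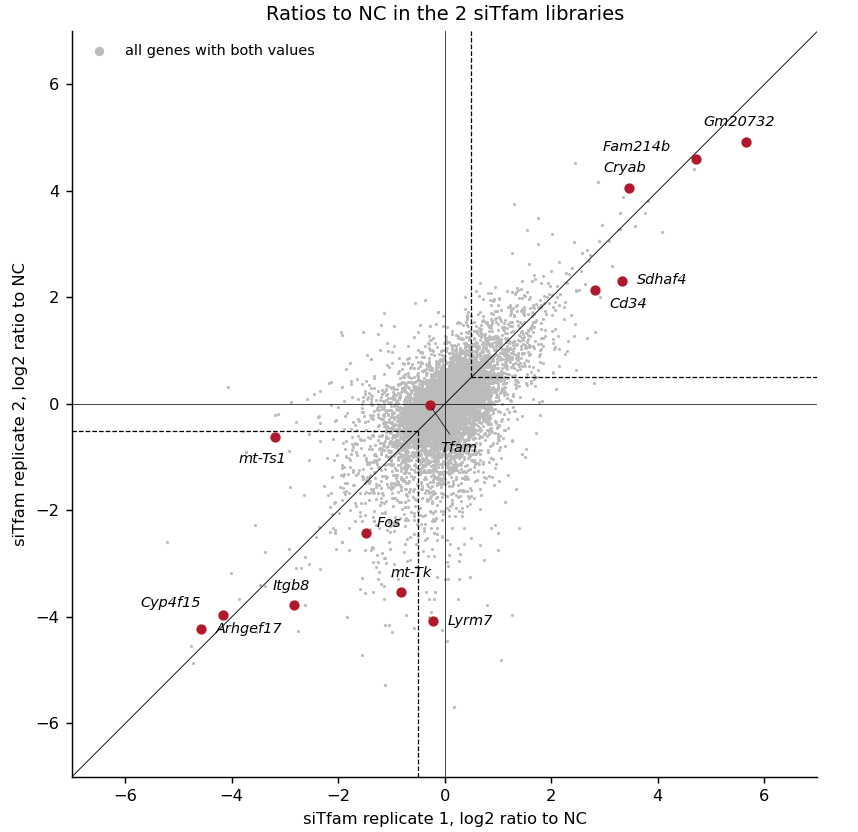
Log2 ratio to NC in siTfam replicate 1 (horizontal) and replicate 2 (vertical) for 12231 genes (grey), with named genes in red; the solid diagonal marks equal ratios and the dashed corners mark genes at least 0.5 from NC in both. Most genes sit near 0, Tfam among them at -0.28 and -0.02, while mt-Tk, mt-Ts1 and Lyrm7 lie far from the diagonal.

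The depth of the libraries is unknown, because the table holds ratios alone. The deposited values carry many decimals, and yet 2299 of the 12231 genes (18.8%) had a siTfam ratio that recurred exactly in another gene of the same library. A ratio of small whole numbers can recur in this way, and a ratio of large ones seldom does. The 2 siTfam ratios of these genes differed by a median of 0.51, against 0.21 for the others. Recurring ratios were found in 12.5% of protein-coding genes, 48.4% of processed pseudogenes, 47.3% of the genes at least 0.5 above NC in both libraries and 36.9% of those at least 0.5 below. Among the tRNAs, mt-Tk, mt-Ti, mt-Tl2, mt-Tt and mt-Ty have one. Named genes with a recurring ratio are pointed out below.

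The targeted transcript was a check of the siRNA labels. Tfam (ENSMUSG00000003923.14, chr10:71225464-71238280, minus strand, GRCm38) had log2 ratios of -0.28 and -0.02, or 82.3% and 98.9% of NC. Its mean was -0.15 (limma SE 0.22, 95% confidence interval -0.75 to 0.46, adjusted p = 0.979), and against the siDhx30 libraries, where Tfam stood at 0.12 and -0.01, the difference was -0.20 (-0.69 to 0.29). A lower Tfam RNA was thus not shown in the libraries labelled siTfam, and in replicate 2 the ratio was near 0. Protein was not measured in these data. Dhx30, the gene targeted in the other siRNA group, had 0.01 and 0.04 in siTfam and -0.40 and -0.20 in siDhx30.

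Among Tfam's partners in mitochondrial transcription, 16 of 20 listed genes were measured, of which 4 lay above NC in both siTfam libraries and 7 below, with a median of -0.07. Tfb2m, which melts the promoter beside TFAM, had -0.38 and -0.41, the 2 values close together, and -0.14 and -0.05 in siDhx30. Its mean of -0.40 had a 95% confidence interval of -0.90 to 0.11. Esrra, a nuclear receptor that drives genes of respiration, had 0.48 and 0.16, and Nrf1, a nuclear activator of Tfam itself, 0.18 and 0.07. No gene of the list was 0.5 from NC in both libraries.

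Most genes that copy and mend mitochondrial DNA lay near NC, with Primpol as the member at least 0.5 from it in both siTfam libraries. Of 20 measured, 5 lay above NC in both and 6 below, with a median of 0.02. Primpol, a primase and polymerase, had 1.38 and 0.75 in siTfam and 1.34 and 0.90 in siDhx30, and it overlaps Cenpu on the other strand. Rrm2b, the ribonucleotide reductase subunit that supplies nucleotides to mitochondria outside S phase, had 0.58 and 0.42 in siTfam against 0.04 and 0.35 in siDhx30. Polg, the mitochondrial DNA polymerase, had 0.10 and 0.09. Among 32 genes of nucleoid RNA processing and decay, 11 lay above and 11 below. Grsf1, an RNA granule protein that binds mitochondrial transcripts, had -1.47 and -1.09 in siTfam and -1.66 and -1.29 in siDhx30, and the rRNA methyltransferase gene Mrm1 had 0.80 and 1.01 in siTfam and 0.11 and 1.08 in siDhx30.

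Among nuclear genes of the respiratory chain, those above NC in both siTfam libraries outnumbered those below. Complex I takes electrons from NADH, and 13 of its 24 measured nuclear subunits lay above NC in both siTfam libraries, 5 below and 6 mixed, with a median of 0.23 beside -0.02 over all genes tested. Ndufa12 had 0.70 and 0.61, Ndufa5 0.82 and 0.55, Ndufa11 0.52 and 0.67 and Ndufc1 0.76 and 0.53. These 4 were the subunits at least 0.5 above NC in both libraries, and none was as far below. On the lower side stood Ndufab1, an acyl carrier protein shared with lipoate synthesis, at -0.42 and -0.40, and the core iron-sulfur subunit Ndufs1 at -0.20 and -0.54. In siDhx30 the subunit median was 0.02 in each library, with Ndufa12 at 0.34 and 0.08. Of 13 complex I assembly factors, 7 lay above and 3 below, with Ndufaf3 at 0.38 and 0.29 and Ndufaf6 at -0.35 and -0.36.

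Complex IV, the oxidase that reduces oxygen, had 9 of 11 measured nuclear subunits above NC in both siTfam libraries and 0 below. The median was 0.31, with medians of 0.39 and 0.33 in the siTfam libraries and 0.34 and -0.01 in the siDhx30 libraries. Cox7c had 0.66 in both siTfam libraries and 0.77 and 0.10 in siDhx30; its mean of 0.66 had a 95% confidence interval of -0.30 to 1.62 and an adjusted limma p of 0.862. Cox7b had 0.62 and 0.43, Ndufa4, an oxidase subunit despite its name, 0.65 and 0.39, and Cox6b1 0.52 and 0.34. The lowest was Cox7a2l, a factor that joins complexes into supercomplexes, at -0.22 and 0.03. Of the 13 assembly factors of the oxidase, 6 lay above and 5 below, and 3 were at least 0.5 below NC in both. These were Cox16 at -0.66 and -0.66, Coa5 at -0.67 and -0.63 and Coa4 at -0.57 and -0.80, with recurring ratios in Cox16 and Coa4. In siDhx30, against the same NC library, these genes were also below NC. Cox16 had -0.85 and -0.23 there, Coa5 -0.47 and -0.50 and Coa4 -0.49 and -1.12. Pet100 stood on the other side in siTfam, at 0.55 and 0.55, also with a recurring ratio.

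The lists of complexes II and III and the ATP synthase, which include assembly factors, had medians of 0.10, 0.22 and 0.12. Complex I subunits had 0.23 and complex IV subunits 0.31. In siDhx30 the medians were 0.10 and 0.32 for complex II, 0.08 and -0.07 for complex III and -0.04 and 0.02 for the ATP synthase. Of 5 measured complex II genes, 3 lay above NC in both siTfam libraries and 0 below. Of 13 measured complex III genes, 8 lay above and 1 below, with Uqcr10 at 0.44 and 0.43, Uqcr11 at 0.42 and 0.38 and Uqcrh at 0.54 and 0.37. The gene below was Lyrm7, an assembly factor for the Rieske protein, whose ratios of -0.22 and -4.08 show how far the replicates of 1 gene could part. Sdhaf4, which matures the flavoprotein of complex II, had 3.33 and 2.31 in siTfam and 2.18 and 2.30 in siDhx30, with a recurring ratio in replicate 2. The catalytic subunit Sdha had 0.11 and 0.09. Of 15 ATP synthase genes, 9 lay above and 2 below. The small subunit genes Atp5e and Atp5mpl had 1.08 and 0.75, and 0.77 and 0.86, in siTfam. In siDhx30 they had 0.87 and 0.21, and 0.89 and 0.18, with replicate 1 near the siTfam libraries. The catalytic subunits Atp5a1 and Atp5b had 0.02 and 0.14, and 0.09 and 0.18, in siTfam. The 2 genes below NC in both siTfam libraries were Atp5j2 and the ATPase inhibitor gene Atpif1. Atp5j2 had -0.28 and -0.55, and Atpif1 -0.27 and -0.12 with a recurring ratio.

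**Figure D2:**
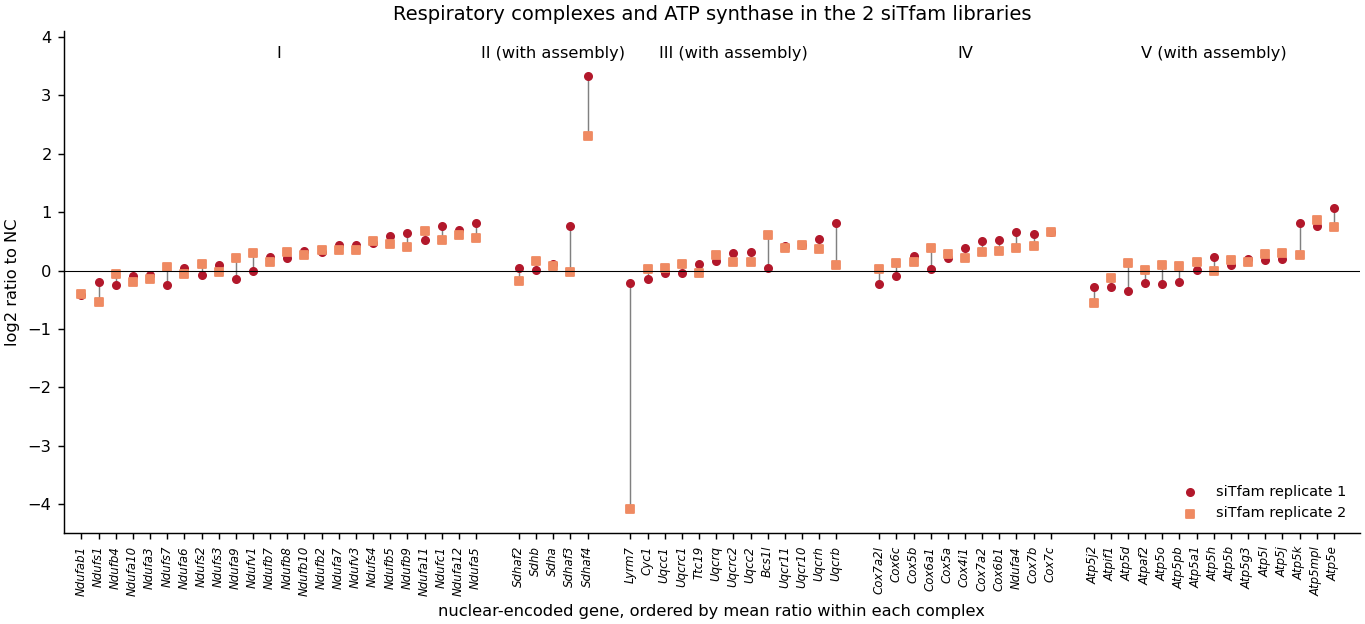
Log2 ratio to NC (vertical) of each measured nuclear gene of complexes I to IV and of the ATP synthase (V), with siTfam replicate 1 as circles and replicate 2 as squares joined by a line. Most of the pairs lie between -0.5 and 1; Sdhaf4 stands above at 3.33 and 2.31, and Lyrm7 is split at -0.22 and -4.08.

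The genes of these complexes have short transcripts, and short transcripts as a class lay above NC in 1 of the siTfam libraries. The median length of the longest annotated transcript was 1416 bases for complex I subunits and 865 for complex IV, against 3610 over all protein-coding genes measured. In the shortest quintile of protein-coding genes (372 to 2176 bases) the median ratio was -0.03 in siTfam replicate 1 and 0.08 in replicate 2, and in the longest quintile 0.03 and -0.11. Trends with length and GC content were then removed within each library. The median of complex I subunits went from 0.23 to 0.21 and that of complex IV subunits from 0.31 to 0.26. Complex III genes went from 0.22 to 0.15, complex I assembly factors from 0.16 to 0.10 and ATP synthase genes from 0.12 to 0.13. With recurring ratios left out instead, the complex I subunit median was 0.19. Several of these genes have near-identical processed pseudogenes, between which reads can be split, so their ratios are uncertain.

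Most other lists of mitochondrial genes had medians close to NC. Iron-sulfur cluster assembly was an exception, with 8 of 17 genes above NC in both siTfam libraries, 2 below and a median of 0.15; the median was 0.04 in siTfam replicate 1 alone and 0.15 in replicate 2. This list is not limited to mitochondrial proteins, and Nubp2, a cytosolic assembly factor, had 0.19 and 0.43 in siTfam. For the mitochondrial ribosome, 13 of 39 large-subunit genes lay above NC in both libraries and 10 below (median 0.04), and 9 of 30 small-subunit genes lay on each side (median 0.01). Mrpl42 stood apart at -1.69 and -1.86 in siTfam and -1.67 and -2.06 in siDhx30. Among 27 mitochondrial translation factors and tRNA synthetases, Yars2, the tyrosine synthetase, had -1.29 and -0.98, and Lars2, the leucine synthetase, 1.12 and 1.44; in siDhx30 they had -1.38 and -1.25, and 1.36 and 1.11. The 28 measured import genes had a median of -0.01, with Timm9, a small chaperone of the intermembrane space, at -0.56 and -0.65 and Immp2l, an inner membrane peptidase, at 1.98 and 2.21. Mitochondrial chaperones and proteases had 4 of 17 genes above and 8 below, with Clpp at -0.42 and -0.32 and Phb2, a prohibitin, at -0.44 and -0.18. Genes of fusion, fission, cristae and mitophagy had 15 of 34 above and 6 below, and the cristae protein gene Apool, at 0.70 and 0.80 with a recurring ratio, was the member at least 0.5 from NC in both. Of 37 mitochondrial carriers, 13 lay above and 9 below; Slc25a20, the carnitine carrier, had 0.52 and 0.47.

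Among the ATF4 targets of the integrated stress response, genes above NC outnumbered those below. Of 30 measured, 18 lay above in both siTfam libraries and 5 below, with a median of 0.14; the siTfam medians were 0.17 and 0.14 and the siDhx30 medians -0.06 and -0.01. Nupr1, a stress-induced nuclear protein, had 0.94 and 0.74 in siTfam and 0.12 and -0.09 in siDhx30. Its siTfam minus siDhx30 difference was 0.82 (95% confidence interval 0.33 to 1.31), with an adjusted limma p of 0.999. Vldlr, a lipoprotein receptor, had 0.56 and 0.73 against 0.00 and -0.24, with a difference of 0.77 (0.27 to 1.26) and the same adjusted p. Cth, the last enzyme of cysteine synthesis, had 0.57 and 0.46, and Vegfa, an angiogenic factor, 0.76 and 0.42. The members below NC were led by Eif4ebp1, a brake on translation, at -0.69 and -0.42, and the glycine transporter gene Slc6a9 at -0.19 and -0.38.

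Among the kinases and regulators upstream of ATF4, genes below NC outnumbered those above. Of 12 measured, 9 lay below NC in both siTfam libraries and 3 above, with a median of -0.21, and 0 were 0.5 from NC in both. The siTfam medians were -0.21 and -0.12, and the siDhx30 medians, against the same NC library, were also below NC at -0.12 and -0.15. Dele1, which relays mitochondrial stress to the kinase HRI, had -0.34 and -0.34, and Eif2ak1, which encodes HRI, had -0.32 and -0.21. Eif2ak3, the kinase PERK, had -0.34 and -0.27, and Oma1, the protease that cleaves DELE1, 0.21 and 0.13. Eif2ak4, the amino acid sensor GCN2, was highest at 0.58 and 0.42 in siTfam and -0.12 and 0.49 in siDhx30. Of 22 genes of serine, glycine and folate metabolism, 11 lay above and 5 below, with Mthfd1 at 0.55 and 0.27 and Mtrr, which repairs methionine synthase, at -0.43 and -0.74. The 22 cytosolic tRNA synthetase genes had a median of 0.02, with Sars at 0.34 and 0.20 and Vars at -0.53 and -0.28.

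In other stress programmes, genes on each side of NC were closer in number. Among 22 NRF2 and glutathione genes, 6 lay above and 8 below. Keap1, the adaptor that marks NRF2 for degradation, had -0.74 and -0.82 in siTfam and -0.24 and -0.48 in siDhx30, Osgin1 had -0.55 and -0.71, and Hmox1, heme oxygenase, -0.47 and -0.60. Gclm, a subunit of the glutathione-synthesis enzyme, had 0.35 and 0.40, and Slc7a11, the cystine importer, 0.34 and 0.24. Endoplasmic reticulum folding genes had 4 of 18 above and 6 below, with Xbp1 at -0.43 and -0.39. Among 22 p53 and apoptosis genes, Cdkn1a, the cell cycle inhibitor p21, had 0.67 and 0.14 against -0.04 and -0.32 in siDhx30. Of 40 lysosome and autophagy genes, 17 lay above and 13 below; Tfeb, a master activator of lysosome genes, had -0.98 and -1.25 in siTfam and -0.84 and -0.50 in siDhx30.

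Sensors of released nucleic acids and interferon-stimulated genes, which mitochondrial DNA in the cytosol can switch on, were thinly measured. Of 21 listed sensors, 9 had both values, with 2 above and 2 below NC and 0 that were 0.5 away in both; the adaptor gene Mavs had -0.18 and -0.24. Of 37 interferon-stimulated genes, 17 were measured, 6 above and 4 below. Oas2 had 0.62 and 0.34, Bst2 0.28 and 0.22 and Rsad2 -0.30 and -0.95. Of 12 measured genes of the siRNA pathway, 1 lay above NC in both siTfam libraries, 6 below and 5 were mixed. Every library was transfected, so these ratios do not check transfection. Ago2, the slicer of RNA interference, had -0.77 and -1.09 in siTfam and -0.39 and -0.70 in siDhx30. It was the 1 member at least 0.5 from NC in both siTfam libraries, and Dicer1 had 0.02 and -0.14. Ago2 overlaps Chrac1 on the other strand.

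Most steps of fuel metabolism lay near NC. The 24 genes of the TCA cycle and pyruvate dehydrogenase had a median of 0.05, with Sucla2 at 0.29 and 0.35, Fh1, fumarase, at 0.19 and 0.28 and Cs, citrate synthase, at -0.10 and -0.12. Of 22 glycolysis and lactate genes, 9 lay above and 4 below; Pgk1 had 0.52 and 0.66 in siTfam and 0.73 and 0.66 in siDhx30, the glucose transporter gene Slc2a3 0.57 and 0.38, and Hk1 -0.29 and -0.48. Of 13 hypoxia genes, 6 lay above NC in both siTfam libraries and 4 below, with a median of 0.04. Car9, a carbonic anhydrase, had 1.10 and 1.40 in siTfam and 0.90 and 0.22 in siDhx30, and Ndrg1 had 0.89 and 0.49. Car12, another carbonic anhydrase, had -0.58 and -1.36 in siTfam and -0.59 and -1.26 in siDhx30, with a recurring ratio. Of 34 genes of fatty acid oxidation and ketone bodies, 13 lay above and 11 below, with Bdh1, which interconverts the ketone bodies, at 1.03 and 1.12 in siTfam and 0.54 and 0.72 in siDhx30. Acsf2, an acyl-CoA synthetase of mitochondria, had -2.79 and -3.08 in siTfam and -3.05 and -2.87 in siDhx30. Cholesterol synthesis had 4 of 21 genes above and 11 below, nucleotide synthesis 8 of 25 above and 9 below, and the purine enzyme gene Paics stood at -0.59 and -0.40.

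**Figure D3:**
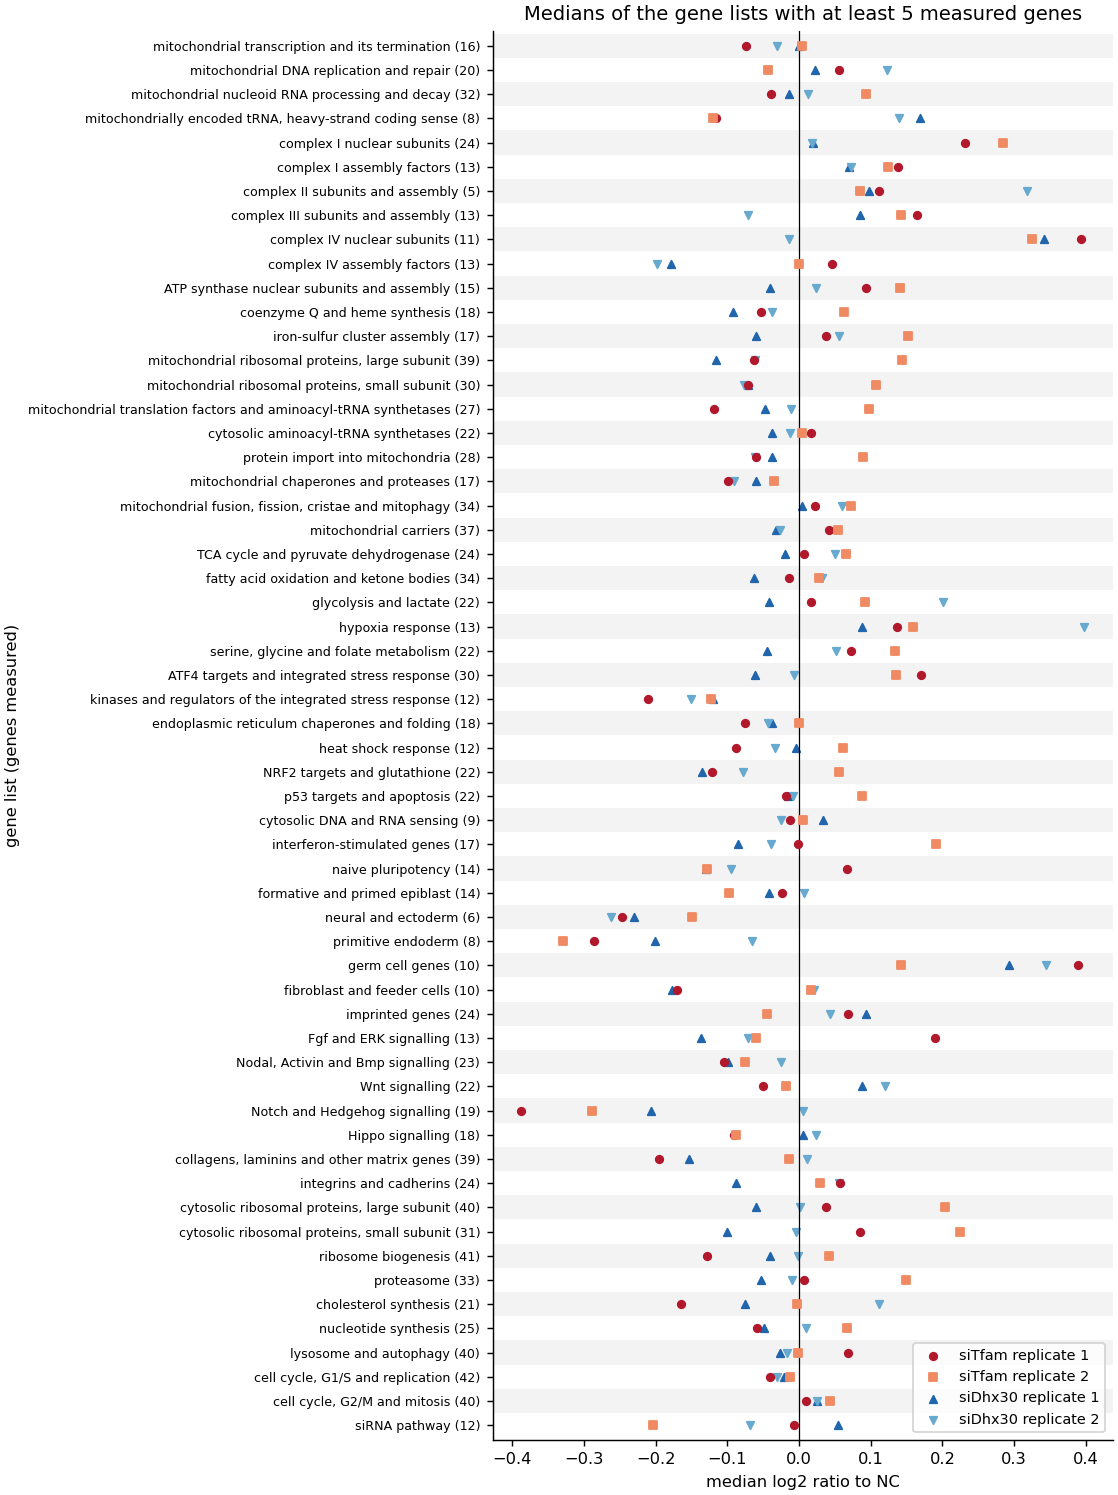
Median log2 ratio to NC (horizontal) of 58 gene lists with at least 5 measured genes, in the 2 siTfam libraries (circles, squares) and the 2 siDhx30 libraries (triangles up, triangles down), all against the same NC library. Nuclear complex IV subunits have medians of 0.39 and 0.33 in siTfam, and Notch and Hedgehog genes -0.39 and -0.29; the siTfam medians of most other lists lie within 0.2 of NC.

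The markers of cell state are described by their ratios to NC, which cannot check the label of embryonic stem cells. Pou5f1, Nanog, Sox2 and Zfp42 were not analysed here, and Esrrb, a naive-state factor, had 0.85 and 0.02. Of 14 measured naive genes, 5 lay above NC in both siTfam libraries and 3 below. Socs3, a feedback inhibitor of LIF signalling, had -2.34 and -0.70 in siTfam and -1.04 and -1.12 in siDhx30, and Tbx3 had -0.56 and -0.48 with a recurring ratio in siTfam, against -1.30 and -2.24. Of 14 formative and primed genes, 6 lay above and 8 below. Otx2, which guides exit from the naive state, had 0.63 and 0.43, Zic2 0.54 and 0.51, Dnmt3a 0.19 and 0.16 and Dnmt3b -0.13 and -0.12. Cd24a had -1.93 and -2.58 in siTfam and -1.73 and -1.58 in siDhx30, with a recurring ratio. The ratios give no level, so how strongly any marker was expressed is not known.

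Few markers of other cells were measured. Of 23 primitive endoderm genes, 8 were measured; Gata4, Gata6 and Sox17 were not analysed here. Of the 8, 6 lay below NC in both siTfam libraries and 0 above, with a median of -0.30 and siDhx30 medians of -0.20 and -0.07. Dab2, an endocytic adaptor, had -1.62 and -1.30 in siTfam and -1.04 and -0.02 in siDhx30, Col4a2, a basement membrane collagen, -1.05 and -2.21, and Sparc -0.15 and -0.29. Of 26 fibroblast and feeder genes, 10 were measured, 2 above and 3 below; Vim had 0.52 and 0.54, and Thy1 0.79 and -0.15 with a recurring ratio. Of 18 trophoblast genes, 3 were measured, with Krt7 at 1.38 and 0.89 and a recurring ratio. Of 20 neural genes, 6 were measured, with Nes at -0.74 and -1.93 and Pax6 at 0.03 and -0.16. Of 16 erythroid, endothelial and blood genes, 4 were measured, 3 above NC in both siTfam libraries and 0 below. Cd34, a surface protein of blood progenitors and endothelium, had 2.83 and 2.15 in siTfam, with a recurring ratio, and 2.33 and 3.50 in siDhx30. Tek, the angiopoietin receptor, had 1.41 and 1.27 against 1.16 and 1.27, while Pecam1 had 0.16 and 0.17 and Ptprc 0.33 and -0.14. Fewer cells of a type and less RNA per cell cannot be told apart in these libraries, and the part of other cells in the results was not tested. Among 10 measured germ cell genes, Taf7l had 0.97 and 1.12 and Sycp1 1.04 and 0.95 in siTfam, against 0.33 and 0.84, and 1.03 and 0.77, in siDhx30.

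Signalling genes held several of the lists' widest ratios. Notch and Hedgehog signalling had the lowest median of the lists with at least 10 measured genes, -0.29, with 3 of 19 genes above NC in both siTfam libraries and 10 below. Lfng, which glycosylates Notch, had -1.90 and -1.58 in siTfam and -1.18 and -1.89 in siDhx30. Notch4, a receptor, had -1.33 and -2.02 against -0.78 and -0.70, and the Hedgehog receptor gene Ptch1 -0.72 and -0.87 against -0.71 and -0.63. Smo, the Hedgehog transducer, had -0.88 and -0.47. The list's median was -0.09 once trends with length and GC content were removed.

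In the Wnt list, 6 of 22 genes lay above and 7 below. Axin2, a feedback target of β-catenin, had -0.50 and -0.49 in siTfam against 0.15 and 0.14 in siDhx30, and the siTfam minus siDhx30 difference was -0.64 (95% confidence interval -1.04 to -0.24), with an adjusted limma p of 0.999. Lgr4, an R-spondin receptor, had -0.20 and -0.23 against 0.23 and 0.10, while Lgr5 had 1.04 and 0.82 with a recurring ratio. In the Hippo list, 6 of 18 lay above and 8 below. Lats2, a kinase of the pathway, had 2.07 and 1.41 in siTfam and 2.07 and 2.49 in siDhx30, with a recurring ratio, and the scaffold gene Amot -1.66 and -0.95 against -0.22 and -0.69.

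The Nodal, Activin and Bmp pathway is the one that the Activin A in the medium drives. Of 23 measured genes, 9 lay above NC in both siTfam libraries and 12 below. Lefty1 and Lefty2, secreted Nodal inhibitors, had -0.84 and -0.39, and -0.87 and -0.26, close to -0.93 and -0.43, and -1.11 and -0.23, in siDhx30. Furin, a protease that matures Nodal ligands, had -1.02 and -0.87, Smad3, an effector, 1.02 and 1.13 and Gdf3, a ligand, 0.50 and 0.58. In the Fgf and ERK list, 5 of 13 lay above and 5 below; Fgfr2 had 0.46 and 0.52, Fgfr1 -0.26 and -0.21, and the immediate early gene Fos -1.48 and -2.42 with a recurring ratio, against -1.12 and -1.10 in siDhx30.

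Among matrix genes, those below NC outnumbered those above. Of 39 matrix genes, 6 lay above NC in both siTfam libraries and 16 below, with Plod1, a collagen hydroxylase, at -0.55 and -0.49. Over all protein-coding genes measured, 31.2% lay above and 35.2% below, so that genes below were the more numerous there too. The list's median was -0.09 and became 0.08 with trends of length and GC content removed. Integrins and cadherins had 11 of 24 above and 8 below, with the adhesion receptor gene Celsr2 at -0.85 and -0.75 in siTfam and -0.87 and -0.71 in siDhx30. Among 24 imprinted genes, 10 lay above and 9 below: Dlk1 had -2.13 and -1.68, Phlda2 -1.54 and -1.23 with a recurring ratio, Mest -0.41 and -0.38, Copg2 0.66 and 0.61 and Peg13 0.62 and 0.65. In siDhx30, Dlk1 had -1.31 and -1.51 and Copg2 0.47 and 0.41.

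Among ribosomal protein and proteasome genes, those above NC outnumbered those below, and the list medians were small. Of 40 large-subunit ribosomal protein genes, 20 lay above NC in both siTfam libraries and 1 below, with a median of 0.07, and of 31 small-subunit genes 18 lay above and 5 below, with a median of 0.15. In each of these lists 3 genes were at least 0.5 above NC in both siTfam libraries. In the small-subunit list 1 gene was at least 0.5 below in both, and the lowest mean ratio was -2.52. Rps29 had 1.12 and 0.93 in siTfam and 0.99 and 0.02 in siDhx30, and Rpl39 1.16 and 0.66 against 1.24 and 0.18. For both genes siDhx30 replicate 1 stood with the siTfam libraries and siDhx30 replicate 2 near NC. Ribosomal protein genes have many processed pseudogenes and their ratios are uncertain. Of 33 proteasome genes, 16 lay above and 9 below (median 0.11; 0.007 in siTfam replicate 1 and 0.15 in replicate 2), and 0 were 0.5 from NC in both. Ribosome biogenesis had 8 of 41 above and 12 below, with Tsr1 at -0.47 and -0.50. The cell cycle lists were centred, with medians of 0.01 for 42 G1/S genes and 0.01 for 40 mitotic genes. Tpx2, a spindle assembly factor, had -0.73 and -0.71 in siTfam and -0.65 and -0.62 in siDhx30, E2f2 -0.83 and -0.75 against -0.22 and -0.62, and Ccnd2, a D-type cyclin, 2.01 and 1.37 against 1.65 and -0.03, with a recurring ratio in siTfam.

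The largest distances from NC were found in single genes outside these programmes. The lowest protein-coding gene was Arhgef17, a guanine nucleotide exchange factor gene (chr7:100869752-100932107, minus strand), at -4.58 and -4.23 in siTfam and -4.38 and -4.35 in siDhx30. Its mean in siTfam was -4.41 (95% confidence interval -5.05 to -3.77, limma unadjusted p = 4.2e-05, adjusted p = 0.283). Rdh13, a mitochondrial retinol dehydrogenase, had -2.63 and -2.87 against -2.54 and -2.66, Daam1, a formin, -2.55 and -3.01 against -2.51 and -2.84, and Mrc1, the mannose receptor, -4.01 and -3.18 against -4.33 and -3.72. Slc39a13, a zinc transporter gene that overlaps Psmc3, had -2.62 and -3.78 against -3.09 and -2.56, and Fxyd2, a regulator of the sodium pump, -2.33 and -3.10 against -2.67 and -3.08. In these 6 genes all 4 siRNA libraries lay more than 2 below NC, and a high value in the shared NC library cannot be told apart from low values in every siRNA library.

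Other low genes stood lower in both siTfam libraries than in both siDhx30 libraries, a difference that does not involve NC. Cyp4f15, a cytochrome P450 of the fatty acid hydroxylase family, had -4.16 and -3.95 in siTfam and -1.36 and -0.26 in siDhx30, a difference of -3.24 (95% confidence interval -4.43 to -2.06). Myo15, an unconventional myosin, had -2.93 and -2.72 against -1.14 and -1.60, a difference of -1.45 (-2.09 to -0.82). Itgb8, an integrin that releases latent TGF-β, had -2.83 and -3.77 against -1.24 and -2.08, and Krt14, a keratin, -3.86 and -3.66 against -2.84 and -1.39 with a recurring siTfam ratio. Mindy2 had -3.56 and -2.28 against -1.65 and -1.30. With limma, 0 of 12186 genes differed between siTfam and siDhx30 at an adjusted p under 0.05, with 0.999 the smallest, and 344 had an unadjusted p under 0.05. The intervals in this paragraph are for single genes and are not adjusted. These genes were named for their low siTfam ratios, which the difference from siDhx30 uses again. The differences may therefore be overstated, and the intervals are no independent test. The same holds for differences from siDhx30 given for other genes named for their siTfam ratios.

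On the upper side, Fam214b had 4.72 and 4.61 in siTfam and no value in siDhx30. Nmbr, the neuromedin B receptor, had 3.76 and 3.59 in siTfam and 3.03 and 3.83 in siDhx30, with a recurring ratio. Cryab, a small heat shock protein gene that overlaps Hspb2, had 3.46 and 4.05, and 3.30 in the siDhx30 library with a value. Cyp4f17, of the same family as Cyp4f15, had 2.88 and 4.16 against 3.08 and 3.77, so that these paralogs lay on opposite sides of NC. Zfp583, a zinc finger gene, had 2.28 and 2.46 against 2.11 and 2.33, and Pgf, placental growth factor, 2.15 and 2.66 against 1.43 and 2.96 with a recurring siTfam ratio. Eml6, a microtubule protein gene that overlaps Rtn4, had 2.90 and 3.06 against 2.22 and 1.72, a difference of 1.01 (95% confidence interval 0.35 to 1.67, adjusted p = 0.999). Thsd7b had 2.68 and 2.89 against 1.88 and 2.14, a difference of 0.77 (0.25 to 1.29).

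**Figure D4:**
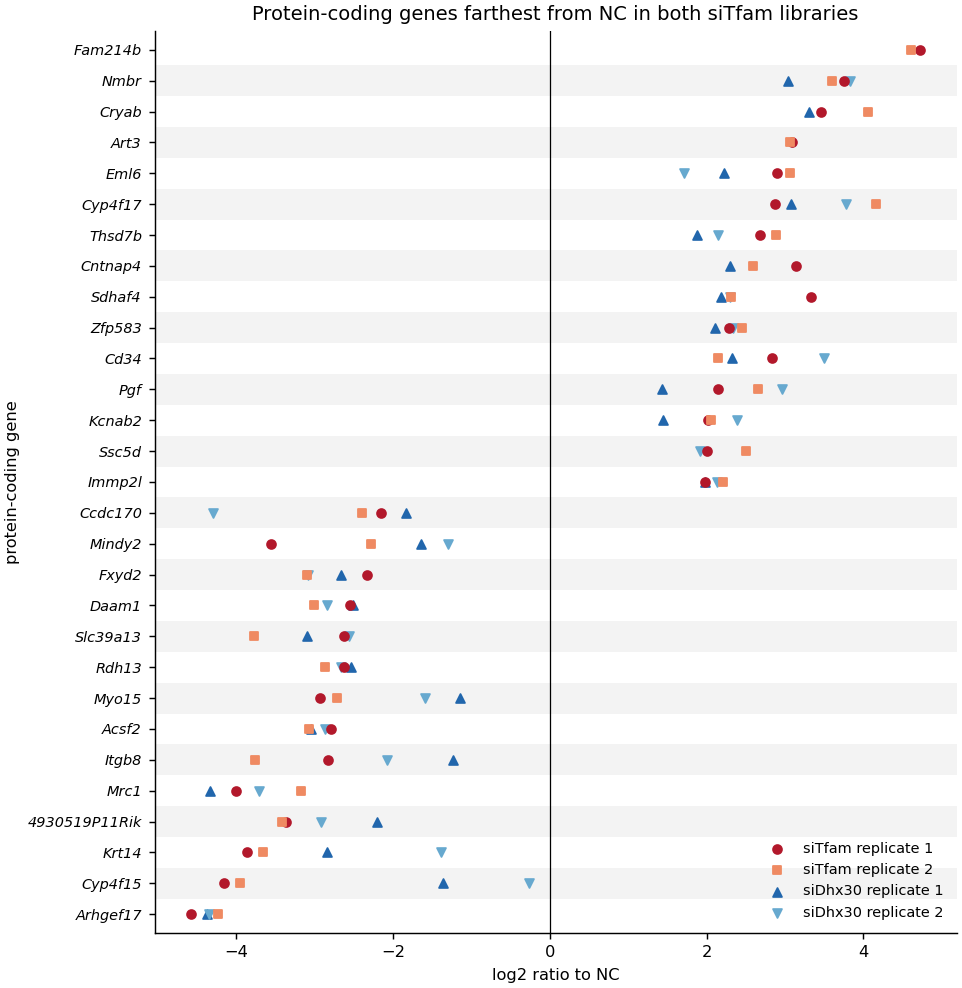
Log2 ratio to NC (horizontal) of the 15 highest and 14 of the 15 lowest protein-coding genes by the siTfam ratio nearer to 0, with siTfam replicates as circles and squares and siDhx30 replicates as triangles; a missing triangle means no deposited value. Arhgef17, Acsf2, Rdh13 and Immp2l have all 4 values close together, while Cyp4f15 and Myo15 have both siTfam values below both siDhx30 values.

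Non-coding genes lay as far from NC. AI838599, a lincRNA gene on chr4:3242055-3258092, had -4.72 and -4.86 in siTfam and -4.94 and -4.53 in siDhx30. The lincRNA 1700110I01Rik (chr14:3262340-3305832) had -4.76 and -4.55 against -0.61 and -1.61, a difference from siDhx30 of -3.54 (95% confidence interval -4.64 to -2.44). 4930415C11Rik, annotated antisense to the neurotrophin receptor gene Ntrk2, had -2.35 and -2.31 against -0.61 and -0.66, a difference of -1.70 (-2.10 to -1.29) with an adjusted limma p of 0.999, and it had the smallest unadjusted p of that comparison. Gm20732, which contains the miRNA gene Mir30d on its own strand, had 5.67 and 4.92 and no siDhx30 value. Gm38188, antisense to Nsl1, had 3.83 and 3.81 against 3.15 and 3.71. Strand use in counting is not stated, so reads of an antisense gene and its partner cannot be told apart.

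Some genes lay on opposite sides of NC in the siRNA groups, and the following 3 were chosen after their values were seen, from the smallest p between siTfam and siDhx30. Slc39a8, a zinc and manganese transporter gene, had -0.69 and -0.78 in siTfam and 0.64 and 0.76 in siDhx30. Emp3, a membrane protein gene, had -0.87 and -0.86 against 0.32 and 0.57, and Apba2, a neuronal adaptor gene, -0.34 and -0.29 against 1.07 and 1.20. The differences ran from -1.45 for Apba2 to -1.31 for Emp3, each with an adjusted limma p of 0.999. All 3 have recurring siTfam ratios.

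A group of 143 genes had both siTfam values but lacked at least 1 siDhx30 value. Their medians were 1.19 and 1.48 in the siTfam libraries, and 123 of them (86.0%) were at least 0.5 above NC in both, with 0 as far below. Among them 124 (86.7%) had a recurring siTfam ratio. All 286 of their siTfam values lie on 1 side of NC, which was also the basis for reading the direction of the deposited ratios, so that their side is no finding. Fam214b, Gm20732 and Art3 are in this group.

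Gene classes differed in how far they spread. Of 413 processed pseudogenes, 107 (25.9%) were at least 0.5 above NC in both siTfam libraries and 44 (10.7%) at least 0.5 below, against 3.79% and 4.64% of 9294 protein-coding genes. The pseudogene medians were 0.26 and 0.24 in siTfam and 0.15 and -0.08 in siDhx30. Of 495 lincRNA genes, 16.6% were at least 0.5 above and 8.08% below, with medians of 0.22 and 0.02. Protein-coding genes of the X chromosome had medians of 0.09 and 0.02.

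GC content separated protein-coding genes in the same direction in both siTfam libraries and to different extents. From the quintile with the lowest GC content (31.0% to 43.9%) to that with the highest (55.5% to 74.2%), the median went from 0.05 to -0.19 in siTfam replicate 1 and from 0.02 to -0.05 in replicate 2. In siDhx30 it went from 0.10 to -0.23 in replicate 1 and from 0.03 to -0.04 in replicate 2. In the highest quintile, 137 genes (7.38%) were at least 0.5 below NC in both siTfam libraries and 60 (3.23%) at least 0.5 above. With length, by contrast, the 2 siTfam libraries ran in opposite directions.

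**Figure D5:**
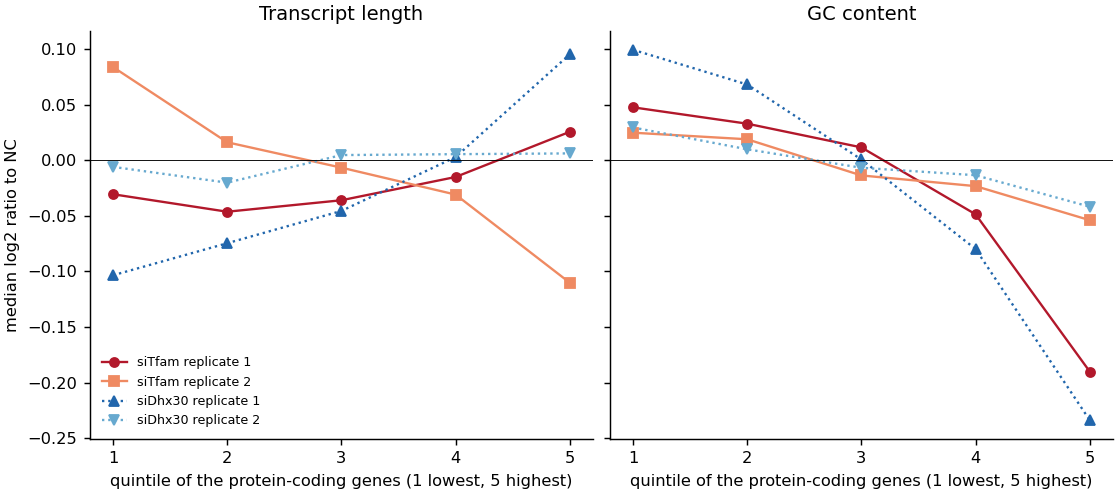
Median log2 ratio to NC (vertical) of protein-coding genes in quintiles of transcript length (left) and GC content (right), for the siTfam libraries (solid lines) and the siDhx30 libraries (dotted lines). With length, siTfam replicate 1 ends at 0.03 and replicate 2 at -0.11; with GC content both end below 0, at -0.19 and -0.05.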

How the data were processed

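RNA-seq of 5 libraries (2 siTfam, 2 siDhx30, 1 NC) gave 1 deposited table of log2 ratios, 1 column for each siRNA library, per the file headers; bcl2fastq, HISAT2, featureCounts, DESeq2 and the build GRCm38 are named in the submitters' processing notes. No source used here gives settings, strand, low-value filters, shrinkage or depth, and 0 value columns were left unused. The direction of the log2 values deposited by the authors is not stated: all 1574 values of the 842 genes with a missing value are negative as deposited, so each sign was reversed to read siRNA over NC.

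The genes and 67 lists were chosen with earlier results of these data known. Names were matched to GENCODE M21 (11967 genes to 1 symbol, 27 to more than 1, 148 to RefSeq alone, 89 to neither). limma 3.58.1 (R 4.3.3; lmFit, robust eBayes, Benjamini-Hochberg over all genes) took NC as a column of zeros, with 1 coefficient per group, 2 residual degrees of freedom and a prior of 2.03; NC is thereby taken to scatter as the siRNA replicates do. The test was tested on simulated data. Genes were named by a rule: Tfam and Dhx30, the 15 highest and 15 lowest protein-coding and 4 and 4 non-coding genes by the ratio nearer to 0, the 5 smallest p, up to 4 genes per list and direction, and all genes of lists with at most 15 measured. Lists were described by counts and medians, with no set test. Lengths and GC content are those of the longest transcript. Alternatives changed the moderation, libraries, genes, centring, replicate block, sign and fold; removal of length and GC trends and of recurring ratios was added after seeing the data. Tables were made with pandas 2.3.3 and numpy 2.4.6 in Python 3.11.15, and plots with matplotlib 3.10.9. Some genes and 1 list are not reported here.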

Additional observations from a re-analysis of the deposited data

Results flagged for a closer look

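For 9 gene lists the median lay on one side of NC in both siTfam libraries and on the other side in both siDhx30 libraries; the difference was not tested for any of them, and all medians share the NC library. The lists are few beside the 59 with at least 5 measured genes. The gap, as the mean siTfam median minus the mean siDhx30 median, was widest for mitochondrial tRNAs of the heavy-strand sense at -0.27, complex IV assembly factors at 0.21, small-subunit ribosomal proteins at 0.21 and ATF4 targets at 0.19. It was -0.14 for Wnt signalling, 0.11 for the proteasome, -0.10 for Hippo signalling, 0.0773 for mitochondrial carriers and 0.0356 for cytosolic tRNA synthetases. The siTfam medians of the tRNA, Wnt and Hippo lists depend on the processing. Without genes with a recurring ratio, the tRNA median went from -0.25 to -0.0082. With length and GC trends removed, the Wnt median went from -0.04 to 0.04 and the Hippo median from -0.09 to 0.03. The proteasome medians were 0.007 and 0.15 in siTfam replicates 1 and 2. The tRNA medians rest on 8 genes, of which mt-Tk ranged from -0.81 to -3.52 between siTfam replicates and from -3.10 to 0.06 between siDhx30 replicates. For complex IV assembly factors the siTfam medians were 0.05 and 0.00. Among ATF4 targets Nupr1 and Vldlr had siTfam minus siDhx30 differences of 0.82 and 0.77, each with an adjusted limma p of 0.999.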

How the results depend on the processing

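limma called 0 genes in siTfam against NC and 0 in siTfam against siDhx30 under every alternative run, the replicate block (1137 genes at an unadjusted p under 0.05 against NC) and each left-out library included. The labels do not say what a replicate number marks, and 2 pairs are too few to settle whether the numbers pair the libraries: the replicate differences of siTfam and siDhx30 had a Pearson correlation of 0.25 over 12088 genes, and both replicate 1 libraries had the wider GC trend. Tfam was 0.15 with signs kept as deposited, and between -0.28 and -0.02 with a library left out. Genes past the fold in both libraries numbered 1367 higher and 1291 lower at a log2 of 0.3, 257 and 210 at 1, and 405 and 438 without genes with a recurring ratio; a single siTfam library gave 1592 to 1791 higher and 1390 to 1792 lower. Of 59 list medians, 33 were above 0, and 27 to 39 under the alternatives. The 39 came with length and GC trends removed, a setting in which the heavy-strand tRNA list has no value and is left out. List medians moved by more than the replicate spread in 4 lists with centring, 19 with length and GC trends removed and 10 without recurring ratios. They did so in 22 lists without replicate 1 and 21 without replicate 2. The spread was taken from the gap between the siTfam medians of a list. Those same medians remain when a replicate is left out, and where they are close a small shift counts as moved. These counts are therefore no measure of robustness. Depth is unknown, and 1 NC library limits every comparison with it.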
